A study of Mus musculus with 24 samples.

Results

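The genes described here are 10 genes that mark mast cells and basophils, picked by symbol from the 24091 genes of the count table. They are the proteases Cpa3, Cma1, Tpsb2, Mcpt8 and Prss34, the granule protein gene Prg2, the IgE receptor chains Fcer1a and Ms4a2, the IL-33 receptor gene Il1rl1, and Hdc, which encodes the enzyme that makes histamine. All 10 were found, and all 10 were among the 13520 genes that passed the filter on low counts. Their levels were compared in bulk RNA-seq of LSKs, the Lin-Sca-1+c-Kit+ fraction of mouse bone marrow in which hematopoietic stem and progenitor cells reside, with 1 library per mouse.

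Each of the 4 groups held 6 mice, 3 females and 3 males. WT mice carried miR-142 and no BCR-ABL, and miR-142 KO mice lacked both copies of miR-142 and carried no BCR-ABL. CP CML mice were miR-142+/+ and expressed BCR-ABL, and BC CML mice were miR-142-/- and expressed BCR-ABL. Per the study's methods all strains were on the B6 background, and BCR-ABL was driven by the SCL promoter through a tet-off transgene, which acts in stem and progenitor cells. Both CML groups were sampled 2 weeks after tetracycline withdrawal. The ages of the mice are not given in the sources used here. The study's methods give n = 5 per group and the labels 6, and each of the 6 was used.

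Mast cells and basophils are granulocytes that arise from hematopoietic progenitors and carry the high-affinity IgE receptor. When IgE on this receptor meets its antigen, the cells release histamine, proteases and proteoglycans from their granules, and they also respond to the alarmin IL-33. Mast cells mature in tissues under stem cell factor and its receptor Kit, store chymases, tryptases and carboxypeptidase A3 and persist, whereas basophils circulate briefly and use other proteases, of which mouse Mcpt8 and Prss34 are the usual markers. Kit is also 1 of the antigens by which LSKs are sorted.

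Total counts per library ranged from 16267965 to 24687077, so 1 CPM (counts per 1000000 of the library total) stood for at least 16 reads. Mir142 had 68 to 153 counts in the WT and CP CML libraries and 0 in every miR-142 KO and BC CML library. The gate gene Kit was present in all libraries, at 636 to 1286 CPM. Kit fell between CP CML and BC CML LSKs, by 0.46 on the log2 scale (adjusted p = 0.000546). Ly6a, which encodes Sca-1, was at 32.1 to 155 CPM and rose with the loss of miR-142 in both normal (log2 fold change 1.15) and leukemic LSKs (1.09). In bulk libraries a larger number of cells with these transcripts and more of the RNA per cell cannot be told apart. Nor can it be told whether the RNA came from mast cells or basophils or from LSKs that express these genes.

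The sequences below show the deleted microRNA and the upstream regions of 6 members. Mature miR-142a-5p lies on chromosome 11 of GRCm38.p6 from 87756867 to 87756887 and miR-142a-3p from 87756903 to 87756925, both on the plus strand. Sequences are those of RefSeq, and capitals mark the seed, bases 2 to 8.
mmu-miR-142a-5p: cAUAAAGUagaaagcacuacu
mmu-miR-142a-3p: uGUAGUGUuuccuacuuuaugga

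Seed matches were counted in the 3' UTR of the longest GENCODE vM21 protein-coding transcript. The match of miR-142a-5p, ACTTTAT, was in 0 of the 10 members and in 15.7% of 12618 tested genes. The match of miR-142a-3p, ACACTAC, was in 1 of the 10 members, Il1rl1, and in 6.89% of tested genes. The members' 3' UTRs were short, with a median of 204.5 bases against 1139 bases in all tested genes, and that of Il1rl1 was the longest of the 10 at 3246 bases. Its match stood at base 1275 of the 3' UTR, in the last exon of the transcript Il1rl1-202, within chr1:40463433-40463461 on the plus strand, and is shown in capitals.
Il1rl1 3' UTR site: gctgagattgtACACTACagactaggcag

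Promoter entries were given for 8 of the 10 members in the RefSeq table (GRCm38.p6), with 2 start sites for Il1rl1, and the 250 bases before each start were searched. GATA factors, among them GATA2 in mast cells and basophils, bind the core GATA, and the letters searched were GATA with A or T before it and A or G after it, on both strands. At least 1 match was present in 8 of the 9 member promoters, against 26.5% of all 32851 promoters and 17.6% of the 13288 promoters of tested genes. At least 2 matches were present in 2 of the 9, against 2.87% of promoters of tested genes. A match of these letters is a description and does not show binding.

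The upstream start of Il1rl1 had 5 matches and Ms4a2 had 3, while Mcpt8 had none. The 250 bases before the upstream Il1rl1 start (chr1:40429320-40429569, plus strand), before Ms4a2 (chr19:11623720-11623969, minus strand), Cpa3 (chr3:20242182-20242431, minus strand), Cma1 (chr14:55944676-55944925, minus strand), Prss34 (chr17:25298144-25298393, plus strand) and Mcpt8 (chr14:56085198-56085447, minus strand) are printed 5' to 3' on the gene's strand, with each match in capitals. None of the printed matches overlapped another.
Il1rl1: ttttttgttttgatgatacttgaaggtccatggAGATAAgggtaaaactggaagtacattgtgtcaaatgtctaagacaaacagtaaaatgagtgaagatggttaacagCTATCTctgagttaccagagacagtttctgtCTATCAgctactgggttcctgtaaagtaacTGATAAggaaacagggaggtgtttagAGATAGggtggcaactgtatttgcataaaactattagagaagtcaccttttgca
Ms4a2: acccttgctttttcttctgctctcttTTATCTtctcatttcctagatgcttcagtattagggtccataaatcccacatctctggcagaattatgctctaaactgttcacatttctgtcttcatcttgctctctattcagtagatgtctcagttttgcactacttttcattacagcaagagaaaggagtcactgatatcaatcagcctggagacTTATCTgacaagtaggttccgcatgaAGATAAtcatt
Cpa3: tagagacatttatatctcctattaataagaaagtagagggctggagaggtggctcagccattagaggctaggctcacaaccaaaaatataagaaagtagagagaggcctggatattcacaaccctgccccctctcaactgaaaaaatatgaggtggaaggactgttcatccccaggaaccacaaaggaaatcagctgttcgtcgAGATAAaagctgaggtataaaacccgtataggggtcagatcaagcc
Cma1: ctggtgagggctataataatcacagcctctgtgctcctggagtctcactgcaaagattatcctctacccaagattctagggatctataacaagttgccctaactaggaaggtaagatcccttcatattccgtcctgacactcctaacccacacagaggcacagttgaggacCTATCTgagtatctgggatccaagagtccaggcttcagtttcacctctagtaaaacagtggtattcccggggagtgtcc
Prss34: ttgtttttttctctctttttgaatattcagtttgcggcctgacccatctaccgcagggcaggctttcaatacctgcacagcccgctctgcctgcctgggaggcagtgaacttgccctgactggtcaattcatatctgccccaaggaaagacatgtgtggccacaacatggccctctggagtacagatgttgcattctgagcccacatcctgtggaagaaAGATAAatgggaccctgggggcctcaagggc
Mcpt8: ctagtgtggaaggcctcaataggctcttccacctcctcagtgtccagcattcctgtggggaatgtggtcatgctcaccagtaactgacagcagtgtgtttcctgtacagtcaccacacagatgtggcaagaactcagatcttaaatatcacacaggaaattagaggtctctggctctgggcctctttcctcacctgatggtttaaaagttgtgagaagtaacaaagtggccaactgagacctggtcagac

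The 10 genes together took 0.0138% to 0.174% of all counts in WT LSKs and 0.0541% to 0.443% in miR-142 KO LSKs, against 0.266% to 0.521% in CP CML LSKs and 0.615% to 1.27% in BC CML LSKs. No BC CML library was inside the range of any other group, whereas the miR-142 KO and CP CML ranges overlapped. Of the members' counts, Cpa3, Cma1, Tpsb2 and Il1rl1 held 6.14% to 47.1% in WT libraries and 19.4% to 48.9% in miR-142 KO libraries, against 59.3% to 80.5% in CP CML libraries and 82.4% to 89.6% in BC CML libraries. Prg2, Mcpt8 and Prss34 held 37.6% to 87.8% of them in WT and 2.24% to 8.40% in BC CML libraries.

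**Figure D1:**
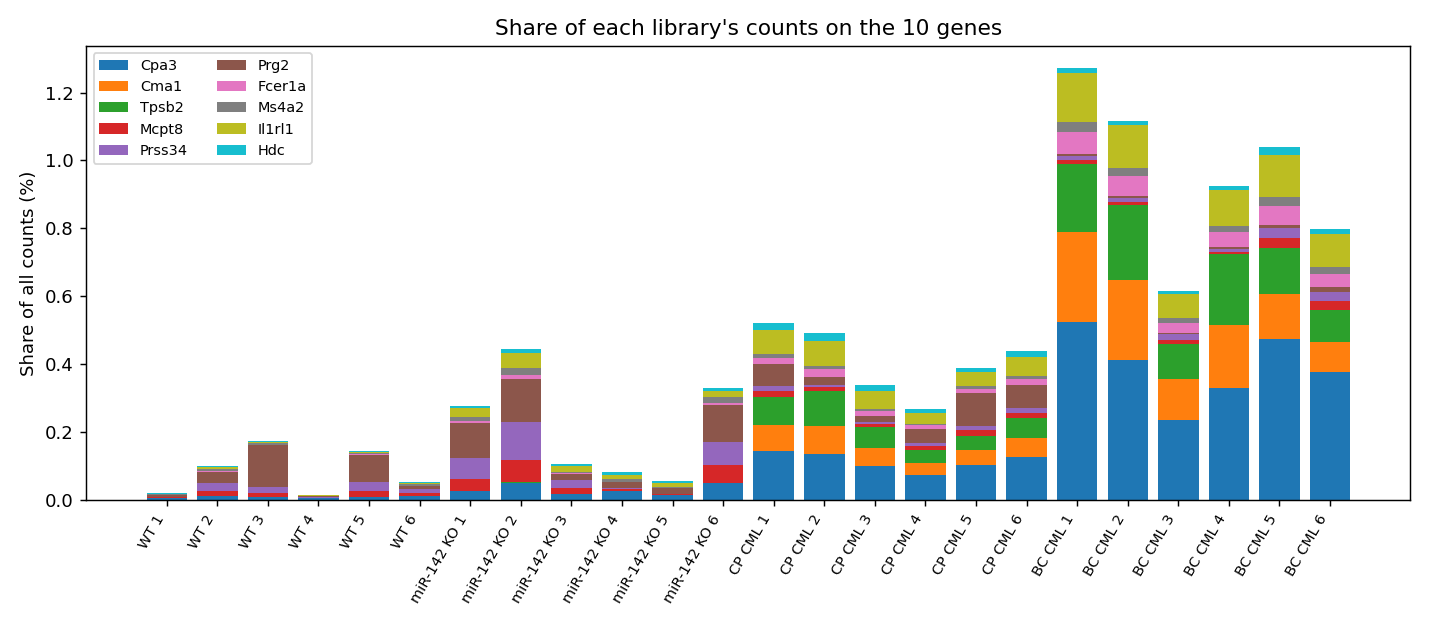
Share of each library's total counts (%, vertical axis, from 0) that fell on each of the 10 genes, with 1 stacked bar per mouse in the 4 groups. The total reached 0.443% in miR-142 KO replicate 2, the highest normal library, and 1.27% in BC CML replicate 1.

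Cpa3, which encodes mast cell carboxypeptidase A3, is on chromosome 3 of mm10 from 20215616 to 20242181. Its level was lowest at 47.4, median 86.1 and highest 113.5 CPM in WT LSKs. In miR-142 KO LSKs the lowest, median and highest values were 142.3, 266.6 and 500.3 CPM, in CP CML 722, 1147 and 1445 CPM, and in BC CML 2366, 3955 and 5252 CPM. The 4 groups formed 4 steps with no overlap between neighbours, and each mean was 3.46 to 3.72 times the one below it. Cpa3 rose with the loss of miR-142 in normal LSKs (log2 fold change 1.96, SE 0.29, adjusted p = 1.435e-05) and in leukemic LSKs (1.86, SE 0.29, adjusted p = 2.65e-05). It rose with BCR-ABL by a log2 fold change of 3.84 (SE 0.32) from WT to CP CML and of 3.74 (SE 0.31) from miR-142 KO to BC CML. The difference between the effects of miR-142 loss in leukemic and normal LSKs was -0.11, with a 95% interval from -0.93 to 0.72. By TPM, which also divides by gene length, Cpa3 ranked between 1 and 5 among all genes in every BC CML library and between 709 and 2380 in WT libraries.

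Cma1 (chromosome 14, 55941451 to 55944675) encodes a mast cell chymase, a protease of the secretory granule. Its values were 0.610, 2.28 and 4.61 CPM (lowest, median and highest) in WT and 1.06, 2.81 and 8.68 CPM in miR-142 KO LSKs. In CP CML they were 352, 541 and 811 CPM, and in BC CML 878, 1595 and 2626 CPM. The normal groups overlapped almost wholly, every CML library stood far above them, and BC CML did not overlap CP CML. Cma1 was 243-fold higher in CP CML than in WT (log2 fold change 7.92, SE 0.47, adjusted p = 7.129e-11) and 510-fold higher in BC CML than in miR-142 KO LSKs (8.995, SE 0.48, adjusted p = 7.22e-12). It was 3.13-fold higher without miR-142 in leukemic LSKs (log2 fold change 1.65, SE 0.34, adjusted p = 0.000515), while in normal LSKs the value was 0.57 (SE 0.46, adjusted p = 0.345), at counts of 14 to 197 per library. The difference between these effects was 1.07 (95% interval -0.11 to 2.25, adjusted p = 0.313).

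Tpsb2 (chromosome 17, 25366333 to 25368092) encodes a tryptase, the other main class of mast cell granule protease. It had 0.610, 1.84 and 5.09 CPM (lowest, median and highest) in WT and 0.708, 1.64 and 10.5 CPM in miR-142 KO LSKs. In CP CML it had 407, 609 and 1044 CPM, and in BC CML 944, 1690 and 2202 CPM. As with Cma1, the normal groups overlapped each other and no CML library came near them, but the CP CML library with 1044 CPM reached into the BC CML range. Tpsb2 was 278-fold higher in CP CML than in WT (log2 fold change 8.12, SE 0.58) and 570-fold higher in BC CML than in miR-142 KO LSKs (9.16, SE 0.59). Without miR-142 KO replicate 2, which held the 10.5 CPM, the second value was 10.17. Tpsb2 rose between CP CML and BC CML LSKs (log2 fold change 1.37, SE 0.41, adjusted p = 0.0105). Between WT and miR-142 KO the log2 fold change was 0.33 (SE 0.57, adjusted p = 0.682), or -0.69 (adjusted p = 0.306) without that library.

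Within libraries, Tpsb2 and Cma1 counts stood in a nearly constant ratio in the CML groups, from 0.942 to 1.29 in CP CML and from 0.769 to 1.12 in BC CML libraries. Tpsb2 is a near relative of Tpsab1 and Cma1 of other chymase genes, so reads could in principle be shared. No stretch of 101 bases, the length of 1 read, in the GENCODE transcripts of either was identical to a transcript of another gene. For the 10 members this held for 9, and for Ms4a2 12 of 3207 such stretches were also in Ms4a4b.

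**Figure D2:**
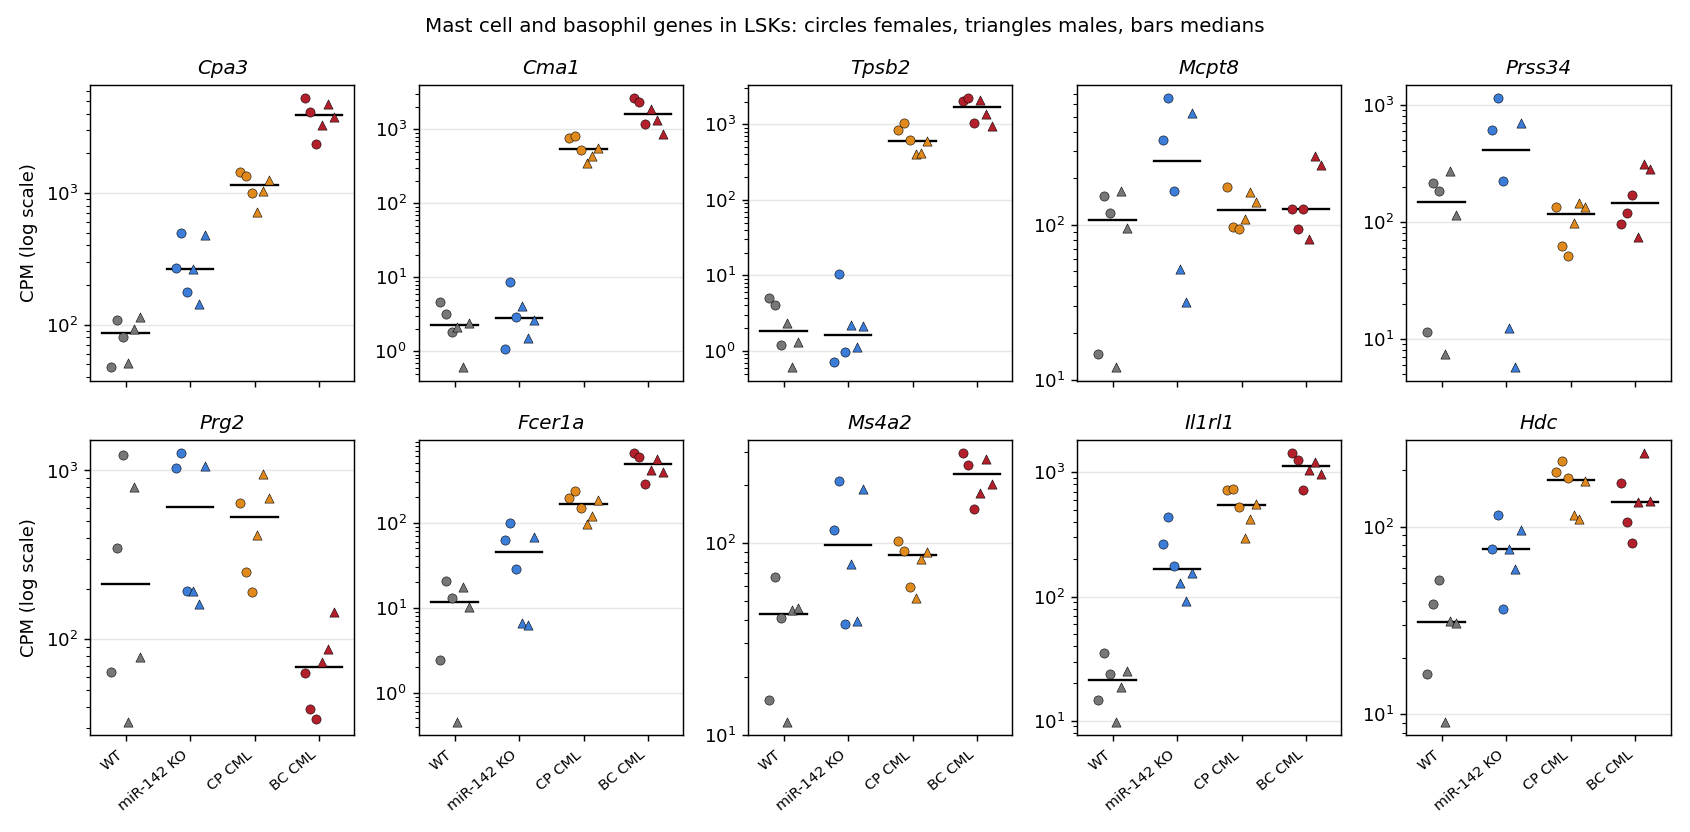
CPM of each of the 10 genes (vertical axes, log scale, different ranges) in the 24 libraries by group. Circles are females, triangles males and bars the medians of 6. Cma1 and Tpsb2 reached at most 10.5 CPM in normal libraries and stood at 352 CPM or more in all CML libraries, whereas Mcpt8 and Prss34 overlapped across all 4 groups.

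The basophil proteases behaved differently. Mcpt8 (chromosome 14, 56082164 to 56085197), a granzyme-like protease of basophils, had 12.03, 107.5 and 164.8 CPM (lowest, median and highest) in WT and 31.9, 259.3 and 654.9 CPM in miR-142 KO LSKs. It had 93.3, 124.7 and 175.6 CPM in CP CML and 81.0, 125.5 and 277.1 CPM in BC CML LSKs. All groups overlapped, and the highest library had 13.7 times the level of the lowest in WT and 20.5 times in miR-142 KO, against 1.88 times in CP CML and 3.42 times in BC CML. Mcpt8 rose from WT to miR-142 KO LSKs (log2 fold change 1.75, SE 0.63, adjusted p = 0.0319). This call was lost without WT replicate 1 (1.52, adjusted p = 0.0624), WT replicate 4 (1.52, adjusted p = 0.0610), miR-142 KO replicate 2 (1.36, adjusted p = 0.0930) or miR-142 KO replicate 6 (1.499, adjusted p = 0.0751). Its log2 fold change was 0.35 between CP CML and BC CML (95% interval -0.91 to 1.61, adjusted p = 0.681), 0.52 between WT and CP CML (-0.75 to 1.79, adjusted p = 0.508) and -0.88 between miR-142 KO and BC CML LSKs (-2.14 to 0.38, adjusted p = 0.262). Fitted to the CP CML and BC CML libraries only, the first value was 0.33 (SE 0.28, adjusted p = 0.352), against an SE of 0.61 in the fit of all libraries.

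Prss34 (chromosome 17, 25298394 to 25300161), a tryptase-like protease of basophils, ranged even more widely. Its lowest, median and highest values were 7.45, 148.6 and 273.0 CPM in WT and 5.77, 412.7 and 1129 CPM in miR-142 KO LSKs. They were 50.8, 115.7 and 145.1 CPM in CP CML and 74.1, 145.1 and 313.4 CPM in BC CML LSKs. The highest miR-142 KO library thus had 196 times the level of the lowest, against 2.86 times in CP CML. Prss34 did not pass in any of the 4 comparisons between groups. Its log2 fold change was 1.80 between WT and miR-142 KO (95% interval 0.04 to 3.56, adjusted p = 0.103), and it passed only without miR-142 KO replicate 4 (2.05, adjusted p = 0.0468) or replicate 5 (2.06, adjusted p = 0.0392). The other values were 0.82 for BC CML against CP CML, -0.33 for CP CML against WT and -1.30 for BC CML against miR-142 KO.

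The low values of both basophil proteases came from the same mice. Summed over Mcpt8 and Prss34, WT replicates 1 and 4 had 26.1 and 19.5 CPM and the other 4 WT mice 211.1 to 438 CPM. Replicates 4 and 5 of miR-142 KO, both males, had 64.6 and 37.7 CPM and the other 4 mice 389 to 1784 CPM. WT replicates 1 and 4 were the 2 lowest of their group for 8 of the 10 genes, with Cma1 and Tpsb2 the exceptions. Replicate 2 of miR-142 KO, a female, was the highest of its group for all 10 genes, and replicate 5 was among the 2 lowest for 9. The count ratio of Prss34 to Mcpt8 was 0.238 in miR-142 KO replicate 4 and 0.1805 in replicate 5, below all other libraries, which ranged from 0.545 to 1.72. A cell count per library is not part of the table, and what set these mice apart was not tested.

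**Figure D3:**
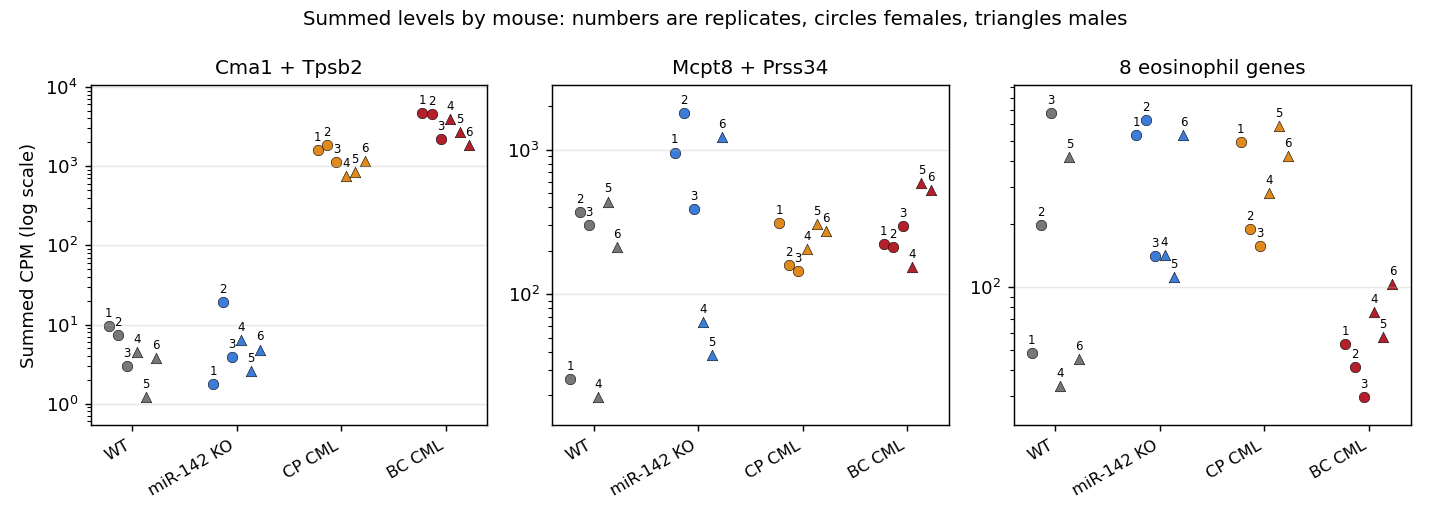
Summed CPM (log scale) of Cma1 and Tpsb2, of Mcpt8 and Prss34 and of the 8 eosinophil genes in each library, by group, numbered by replicate. The mast cell pair separated CML from normal libraries, the basophil pair was lowest in WT replicates 1 and 4 and miR-142 KO replicates 4 and 5, and the eosinophil genes were lower in every BC CML than in every CP CML library.

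Proteases of both kinds neighbour each other in the genome. Cma1 and Mcpt8 lie 137.5 kb apart on chromosome 14 and Prss34 and Tpsb2 66.2 kb apart on chromosome 17. In each pair the mast cell protease rose with BCR-ABL, and its basophil neighbour did not pass between WT and CP CML or between miR-142 KO and BC CML LSKs.

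Prg2 (chromosome 2, 84980461 to 84983632) encodes the major basic protein of eosinophil granules, which basophils and mast cells also carry. It had 32.5, 213.2 and 1230 CPM (lowest, median and highest) in WT, 162.4, 610.2 and 1268 CPM in miR-142 KO and 191.1, 529 and 957 CPM in CP CML LSKs. In BC CML it had 33.6, 68.4 and 144.4 CPM. All 6 BC CML libraries were below all CP CML and miR-142 KO libraries, but within the WT range. Prg2 fell between CP CML and BC CML LSKs by 2.76 on the log2 scale (SE 0.76, adjusted p = 0.00585) and between miR-142 KO and BC CML LSKs by 3.10 (SE 0.77, adjusted p = 0.00298). Between WT and miR-142 KO the log2 fold change was 0.67 (95% interval -0.78 to 2.13, adjusted p = 0.478), and between WT and CP CML 0.34 (-1.12 to 1.79, adjusted p = 0.720). Eosinophil genes moved with it. Of 8 listed, 7 fell and 0 rose between CP CML and BC CML LSKs, where 17.6% of all tested genes fell and 20.4% rose. The median log2 fold change of the 8 was -2.71 against 0.01 for all tested genes. Their summed level was 156.5 to 587 CPM in CP CML and 29.8 to 102.8 CPM in BC CML. Among them were Epx, the eosinophil peroxidase (log2 fold change -2.97, adjusted p = 0.00350), and Il5ra, the receptor for the eosinophil growth factor IL-5 (-1.41, adjusted p = 0.00343). The eosinophil ribonuclease gene Ear2 also fell (-3.51, adjusted p = 0.00302), at low levels. Its mean was 2.74 CPM in CP CML, and it was below 1 CPM in every BC CML library. The part of the eosinophil genes in the change of Prg2 was not tested.

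The high-affinity IgE receptor is built from an alpha chain that binds IgE, a beta chain that amplifies the signal and a gamma chain shared with other receptors. Fcer1a, the alpha chain (chromosome 1, 173221271 to 173227229), had 0.454, 11.6 and 20.6 CPM (lowest, median and highest) in WT and 6.26, 45.7 and 98.1 CPM in miR-142 KO LSKs. It had 96.9, 164.7 and 236.2 CPM in CP CML and 286 to 659 CPM, with a median of 490 CPM, in BC CML LSKs. The CML groups did not overlap each other, and the highest miR-142 KO library just exceeded the lowest CP CML library. Fcer1a rose 3.11-fold between CP CML and BC CML (log2 fold change 1.64, SE 0.55, adjusted p = 0.0211) and 4.40-fold between WT and miR-142 KO LSKs (2.14, SE 0.60, adjusted p = 0.00709). The second call was lost when the fit held only the WT and miR-142 KO libraries (2.13, adjusted p = 0.0606). With BCR-ABL it rose 15.7-fold from WT to CP CML and 11.1-fold from miR-142 KO to BC CML LSKs.

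Ms4a2, the beta chain (chromosome 19, 11615521 to 11623719), had 11.7, 42.9 and 66.7 CPM (lowest, median and highest) in WT and 37.7, 97.5 and 210.9 CPM in miR-142 KO LSKs. It had 51.5, 86.7 and 102.5 CPM in CP CML and 150.8, 229.4 and 295.3 CPM in BC CML LSKs. Its CP CML values lay inside the miR-142 KO range, and BC CML stood clear of CP CML but not of miR-142 KO. Ms4a2 rose with the loss of miR-142 by log2 fold changes of 1.58 (SE 0.40, adjusted p = 0.00312) in leukemic and 1.65 (SE 0.41, adjusted p = 0.00269) in normal LSKs. The rise with BCR-ABL was smaller, 1.13 from WT to CP CML (SE 0.40, adjusted p = 0.0251) and 1.07 from miR-142 KO to BC CML (SE 0.39, adjusted p = 0.0343). The first was lost without WT replicate 1 (0.97, adjusted p = 0.0591) or WT replicate 4 (0.96, adjusted p = 0.0554). The second was lost without any 1 of miR-142 KO replicates 1, 3, 4 and 5 (adjusted p = 0.0542, 0.0631, 0.0741 and 0.0813) or BC CML replicates 1, 2 and 5 (0.0750, 0.0624 and 0.0600).

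The 2 chains changed by unequal amounts. The count ratio of Fcer1a to Ms4a2 was 0.0388 to 0.392 in WT libraries and 0.0848 to 0.766 in miR-142 KO libraries, against 1.45 to 2.59 in CP CML libraries and 1.90 to 2.30 in BC CML libraries, so no normal library reached the CML range. For the gamma chain and the proximal signalling of the receptor 11 genes were listed. Of these, 1 rose and 4 fell between CP CML and BC CML LSKs, where 20.4% of all tested genes rose and 17.6% fell. The median log2 fold change of the 11 was 0.06. Between WT and miR-142 KO LSKs 4 rose and 1 fell, where 19.9% of tested genes rose and 16.4% fell. With BCR-ABL 5 of the 11 rose and 1 fell from WT to CP CML, where 22.5% of tested genes rose and 22.9% fell. From miR-142 KO to BC CML LSKs 5 rose and 2 fell, where 20.3% rose and 19.3% fell. The gamma chain gene Fcer1g was among those that rose with BCR-ABL, by log2 fold changes of 0.99 (adjusted p = 0.000765) and 0.82 (adjusted p = 0.00431). The one that rose between CP CML and BC CML was the adaptor Lat2 (log2 fold change 0.45, adjusted p = 0.00235), and the phospholipases Plcg1 (-0.42, adjusted p = 0.000154) and Plcg2 (-0.21, adjusted p = 0.00752) fell.

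Il1rl1 (chromosome 1, 40429570 to 40465414) encodes ST2, the receptor through which mast cells and basophils respond to IL-33. It had 9.81, 21.3 and 34.9 CPM (lowest, median and highest) in WT, and 91.3, 165.5 and 434.8 CPM in miR-142 KO LSKs. It had 298, 542 and 740 CPM in CP CML and 716, 1135 and 1432 CPM in BC CML LSKs. WT stood apart from the other groups, while neighbouring groups among the other 3 overlapped. Il1rl1 rose 10.3-fold with the loss of miR-142 in normal LSKs (log2 fold change 3.37, SE 0.35, adjusted p = 1.134e-07) and 2.14-fold in leukemic LSKs (1.10, SE 0.31, adjusted p = 0.00808). It rose with BCR-ABL by 4.73 (SE 0.37) from WT to CP CML and by 2.46 (SE 0.33) from miR-142 KO to BC CML on the log2 scale.

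Hdc (chromosome 2, 126593660 to 126618678) encodes histidine decarboxylase, the only enzyme that makes histamine. Its lowest, median and highest values were 9.13, 31.0 and 51.9 CPM in WT, 36.3, 76.0 and 115.7 CPM in miR-142 KO, 109.5, 177.1 and 222.5 CPM in CP CML and 81.7, 135.8 and 246.2 CPM in BC CML LSKs. The CP CML values lay inside the BC CML range, and no CML value was below the highest in WT. Hdc rose from WT to miR-142 KO (log2 fold change 1.42, SE 0.33, adjusted p = 0.00173) and from WT to CP CML LSKs (2.53, SE 0.34, adjusted p = 5.293e-06). From CP CML to BC CML the value was -0.12, with a 95% interval from -0.78 to 0.53 (adjusted p = 0.789). From miR-142 KO to BC CML it rose by 0.99 (SE 0.32, adjusted p = 0.0184), a call lost without BC CML replicate 5 (0.77, adjusted p = 0.0615).

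Over the 10 genes, the loss of miR-142 in leukemic LSKs (BC CML against CP CML) was accompanied by a rise of 6 and a fall of 1, and 3 did not pass, where 20.4% of all tested genes rose and 17.6% fell. The median log2 fold change of the 10 was 1.23, against 0.01 for all tested genes. The groups did not overlap for 5 of the 10 and for 21.2% of tested genes. In normal LSKs (miR-142 KO against WT) 6 rose and 0 fell, where 19.9% of tested genes rose and 16.4% fell. The median was 1.70, against 0.01 for all tested genes, and 2 of the 10 and 14.3% of tested genes did not overlap. With upper quartile scaling in place of TMM, 15.99% of tested genes rose and 21.7% fell in leukemic LSKs, and 15.6% rose and 21.6% fell in normal LSKs, while the counts over the 10 genes were the same. The genes that rose in both were Cpa3, Ms4a2, Fcer1a and Il1rl1.

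With BCR-ABL, from WT to CP CML 7 genes rose and 0 fell, where 22.5% of tested genes rose and 22.9% fell, and the median of the 10 was 3.19 against -0.02 for all tested genes. The groups did not overlap for 6 of the 10 and for 22.1% of tested genes. From miR-142 KO to BC CML 7 rose and 1 fell, where 20.3% of tested genes rose and 19.3% fell, and the median was 1.77 against -0.02. Here 6 of the 10 and 11.2% of tested genes did not overlap. The comparisons share groups with each other, so their counts are not independent.

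**Figure D4:**
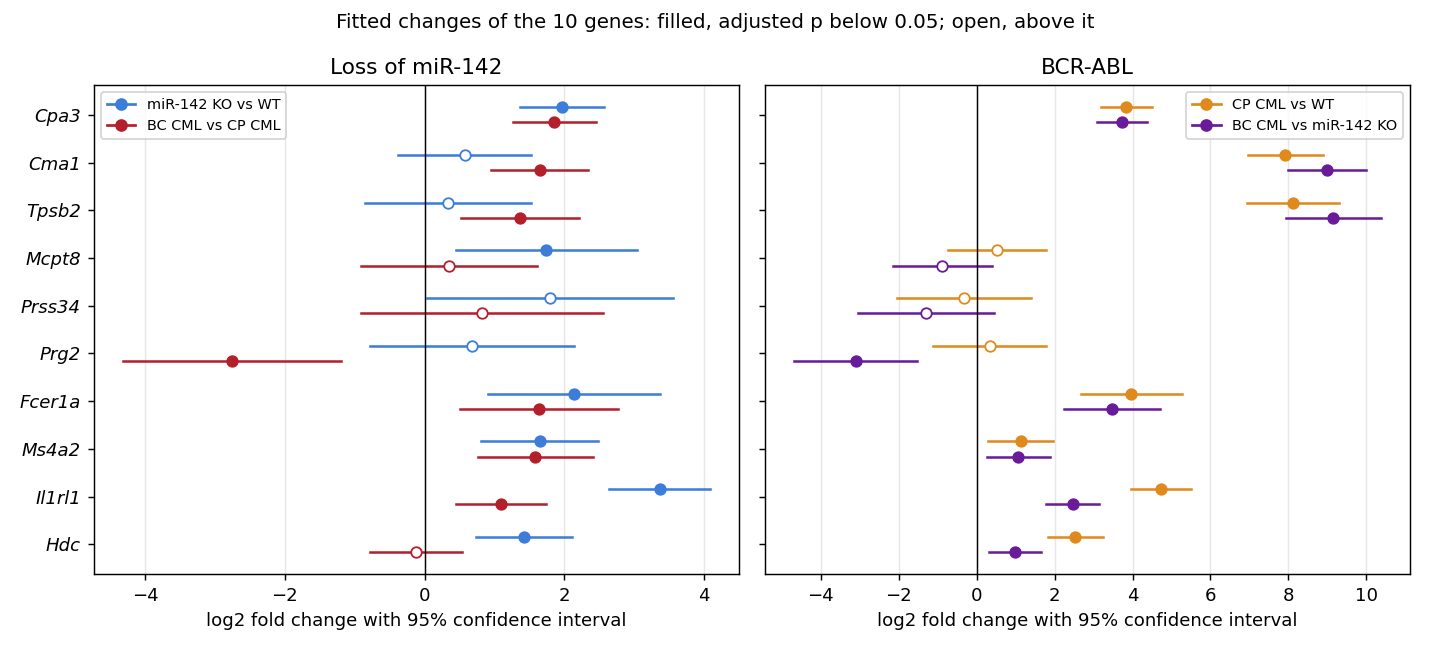
Log2 fold changes of the 10 genes with 95% confidence intervals, for the loss of miR-142 in normal and leukemic LSKs (left) and for BCR-ABL with and without miR-142 (right). Filled points have an adjusted p below 0.05. Cma1 and Tpsb2 had log2 fold changes of 7.92 to 9.16 with BCR-ABL, and Prg2 had the one filled point below 0 in each panel.

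Whether the loss of miR-142 acted differently in leukemic and normal LSKs was tested as the difference between the 2 effects. It passed for 1 of the 10 genes, Il1rl1, and for 3.99% of all tested genes. The effect on Il1rl1 was smaller in leukemic LSKs by 2.27 on the log2 scale (SE 0.45, 95% interval -3.20 to -1.34, adjusted p = 0.00591). Next in order were Hdc, with a difference of -1.55 (SE 0.46, adjusted p = 0.0564), and Prg2, with -3.43 (SE 1.03, adjusted p = 0.0587), and both passed with the likelihood ratio test of edgeR (adjusted p = 0.0228 and 0.0148) and with DESeq2 (0.0333 and 0.00934). Without WT replicate 3, whose Prg2 level was the highest of its group, the differences were -1.81 (adjusted p = 0.0183) for Hdc and -4.16 (adjusted p = 0.0166) for Prg2. Both also passed without miR-142 KO replicate 3 or 5, and Prg2 without BC CML replicate 6 and Hdc without CP CML replicate 5 or BC CML replicate 5. For the other 7 genes the adjusted p was 0.313 or more.

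Between females and males, with group as a term, 0 of the 10 genes passed edgeR's quasi-likelihood test, where 0.651% of all tested genes did. At an unadjusted p below 0.05 there were 3, Cma1, Tpsb2 and Il1rl1, and the likelihood ratio test and DESeq2 called 0. These 3 were higher in females, with log2 fold changes of 0.67 (SE 0.23, adjusted p = 0.153), 0.74 (SE 0.29, adjusted p = 0.206) and 0.61 (SE 0.19, adjusted p = 0.124). The means for Il1rl1 were 292 CPM in females and 125.5 CPM in males of the miR-142 KO group and 1137 and 1081 CPM in those of the BC CML group.

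Other genes of the 2 lineages were examined as lists, to be read against the shares of all tested genes. From CP CML to BC CML 20.4% of all tested genes rose and 17.6% fell, and from WT to miR-142 KO 19.9% and 16.4%. From WT to CP CML 22.5% rose and 22.9% fell, and from miR-142 KO to BC CML 20.3% and 19.3%. Of 9 further mast cell and basophil proteases, 8 were tested, and all 8 rose from WT to CP CML and from miR-142 KO to BC CML LSKs, with median log2 fold changes of 7.02 and 5.77. Mcpt9, the one not tested, had 0 counts in every normal library. In WT 6 of the 9, Mcpt1, Mcpt2, Mcpt9, Cma2, Tpsab1 and Tpsg1, were below 1 CPM in every library. In miR-142 KO 5 were, the same genes without Mcpt1. Those of them that were tested passed the filter on low counts only through the CML groups. The count of 8 was thus partly set by the filter, and the 2 medians rest on values near 0 in normal LSKs. Between WT and miR-142 KO 3 rose and 0 fell, namely Ctsg, Gzmb and Mcpt1. In miR-142 KO LSKs Mcpt1 had a mean of only 0.61 CPM (SD 1.31), with 0 CPM in the lowest and 3.27 CPM in the highest library. The 5 that did not pass there were Mcpt2, Mcpt4, Cma2, Tpsab1 and Tpsg1. Between CP CML and BC CML 5 rose and 1 fell. The gene that fell was Mcpt2, a chymase of mucosal mast cells, whose mean was 93.1 CPM in CP CML and dropped to 23.4 CPM with BC CML (log2 fold change -1.93, SE 0.36, adjusted p = 0.000185). Mcpt4, the main chymase of connective tissue mast cells, rose from 226.6 to 549.7 CPM (1.35, SE 0.26, adjusted p = 0.000256). Ctsg, encoding cathepsin G of mast cells and neutrophil precursors, rose from 717 to 1334 CPM (0.96, adjusted p = 0.00397) and, unlike the chymases, was already at a mean of 189.6 CPM in WT and 749.8 CPM in miR-142 KO LSKs.

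Of 9 genes for histamine storage, granule proteoglycan and lipid mediators, 4 rose and 1 fell between CP CML and BC CML, with a median log2 fold change of 0.33. Srgn, the proteoglycan core on which granule proteases are packed, rose from a mean of 639 to 1157 CPM (0.92, SE 0.11, adjusted p = 7.516e-07). Ptgs1 (0.76, adjusted p = 4.037e-05) and Alox5ap (0.33, adjusted p = 0.000105), which act in prostaglandin and leukotriene synthesis, also rose. The gene that fell was Hpgds, from a mean of 33.9 to 17.4 CPM (-0.89, adjusted p = 0.0108). Of 8 cytokine genes, 2 rose and 0 fell, namely Il13 (2.24, adjusted p = 0.000195; from a CP CML mean of 1.01 CPM to a BC CML mean of 4.55 CPM) and Lif (1.29, adjusted p = 0.0227), while Tnf had a value of -0.77 (adjusted p = 0.0616).

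Of 13 listed transcription factors of the lineage, 2 rose and 1 fell between CP CML and BC CML, where 20.4% of all tested genes rose and 17.6% fell. Between WT and miR-142 KO 9 rose and 0 fell, where 19.9% of tested genes rose and 16.4% fell, and 6 rose and 3 fell between WT and CP CML. Spi1 (log2 fold change 0.22, adjusted p = 0.0130) and Ikzf2 (0.37, adjusted p = 0.000304) rose and Stat5b fell (-0.15, adjusted p = 0.00466) between CP CML and BC CML. There Gata2 had a value of -0.08 (adjusted p = 0.607). It rose from WT to miR-142 KO (0.56, adjusted p = 0.000629) and from WT to CP CML (0.65, adjusted p = 0.000134). From miR-142 KO to BC CML the value of Gata2 was 0.01 (adjusted p = 0.970). Mitf rose from WT to CP CML (1.74, adjusted p = 7.246e-09) and from miR-142 KO to BC CML (0.96, adjusted p = 2.601e-05). Mitf also rose from WT to miR-142 KO (0.44, adjusted p = 0.0213) and had a value of -0.34 (adjusted p = 0.0588) between CP CML and BC CML. Gata1 fell from WT to CP CML (-0.55, adjusted p = 0.0178) and from miR-142 KO to BC CML (-0.73, adjusted p = 0.00317). The part of these factors in the members' changes was not tested. Of 18 tested receptor and surface genes, 14 rose and 0 fell between WT and CP CML, where 22.5% of all tested genes rose and 22.9% fell. Between WT and miR-142 KO 12 rose and 1 fell. Between CP CML and BC CML 5 rose and 3 fell, where 20.4% of all tested genes rose and 17.6% fell. In the last comparison Cd63, a granule membrane protein used to detect degranulation, rose from a mean of 56.0 to 102.6 CPM (0.94, adjusted p = 3.006e-06). Csf2ra rose by 0.34 (adjusted p = 0.00192). The genes that fell there were Kit (-0.46, adjusted p = 0.000546), Il5ra (-1.41, adjusted p = 0.00343) and Mrgprb2 (-1.03, adjusted p = 0.0387). Mrgprb2 averaged 48.9 CPM across CP CML mice and 22.7 CPM across BC CML mice.

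Markers of other cells were counted in the same libraries, and the shares of all tested genes given above apply to these lists too. Some lists share genes. Ctsg, a marker of neutrophil-primed progenitors, is also among the further proteases above. Il5ra (eosinophil list), Kit (gate list) and Itga2b (megakaryocyte list) are also among the receptor and surface genes. Of 5 markers of neutrophil-primed progenitors, 3 rose and 0 fell between CP CML and BC CML, among them Elane (log2 fold change 1.17, adjusted p = 0.0127) and Prtn3 (0.64, adjusted p = 0.0196), and all 5 rose between WT and miR-142 KO and between WT and CP CML. Their summed level was 1315 to 4968 CPM in WT, 2654 to 7540 CPM in miR-142 KO, 4521 to 7631 CPM in CP CML and 5722 to 8086 CPM in BC CML LSKs. Their part in the members' results was not tested. Of 5 tested mature neutrophil markers, 0 rose and 1 fell between CP CML and BC CML, the granule gene Ngp (-2.37, adjusted p = 0.0273), and 4 rose between WT and miR-142 KO, among them S100a8 (2.86) and S100a9 (2.15). Their summed level stayed low, at 6.99 to 44.6 CPM in WT, 17.2 to 175.8 CPM in miR-142 KO, 8.85 to 31.5 CPM in CP CML and 7.13 to 41.7 CPM in BC CML LSKs, and Ly6g was below 1 CPM in every library.

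Of 7 monocyte and macrophage markers, 0 rose and 0 fell between CP CML and BC CML (244.4 to 639 CPM summed in CP CML and 244.8 to 486 CPM in BC CML). Their summed level was 175.1 to 1197 CPM in WT and 110.4 to 497 CPM in miR-142 KO LSKs, where 2 fell. Car1, a carbonic anhydrase gene of erythroid cells, fell in the leukemic comparison (-3.94). Of 6 megakaryocyte markers 1 fell, Gp9 (-0.36, adjusted p = 0.0479), and 5 rose between WT and miR-142 KO LSKs. Of 6 B and plasma cell markers 3 fell with the loss of miR-142 in leukemic LSKs, Cd79a (-2.60), Jchain (-6.04) and Mzb1 (-4.82). Cd79a and Mzb1 were below 1 CPM in every BC CML library, at means of 0.39 and 0.20 CPM. In normal LSKs 2 fell with the loss of miR-142, Jchain (-7.15) and Mzb1 (-3.45). Of 3 tested T and NK cell markers 1 rose between CP CML and BC CML, Nkg7 (0.56, adjusted p = 0.00127), and all 3 rose between WT and miR-142 KO. Cd3e and Cd3d were below 1 CPM in every WT, CP CML and BC CML library. Of 6 genes of the LSK gate and its subsets, 1 rose (Ly6a) and 3 fell between CP CML and BC CML, among them Flt3 (-1.23, adjusted p = 1.054e-06), the receptor of lymphoid-primed progenitors.

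The genes most like the 3 most abundant members were found by the root mean square difference between log2 CPM values, centred per gene, over the 24 libraries. For Cpa3 they were Enah, an actin regulator, with a difference of 0.53, Cadm3, an adhesion protein (0.71), and Cyp11a1, the enzyme that starts steroid synthesis from cholesterol (0.72). Mean levels of Enah were 1.62 CPM in WT and 7.83 CPM in miR-142 KO LSKs, against 27.9 CPM in CP CML LSKs and 81.0 CPM in BC CML LSKs, which repeats the 4 steps of Cpa3 at a lower level. For Cma1 they were Mcpt4 (0.59), Tpsab1 (0.73) and the actin nucleator Cobl (1.11), and for Tpsb2 the same 3 genes, Tpsab1 (0.80), Mcpt4 (0.87) and Cobl (1.22).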

How the data were processed

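Each library came from the sorted LSKs of 1 mouse. The mRNA libraries (Kapa HyperPrep, from RNA purified with a Qiagen miRNeasy Micro column) were read from both ends at 101 bases. The authors deposited unnormalized read counts for each gene. Per the submitters' processing notes, reads were trimmed with Trimmomatic, mapped to mm10 with STAR 2.6.0 and counted with HTSeq 0.11.1. The strand setting of the counting is not given in the sources used here. A further deposited column holds gene length in kb, from which TPM was computed. CPM is counts per 1000000 of the library total.

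Genes that passed filterByExpr (13520) were TMM-scaled and tested by quasi-likelihood in edgeR 4.0.16 (R 4.3.3), in 1 fit of all 24 libraries, with p-values adjusted over these genes (Benjamini-Hochberg), at a threshold of 0.05 on the adjusted p. The SE is the log2 fold change divided by the square root of F. The procedure was tested on simulated data for BC CML against CP CML only, with the same spread for every gene. That test does not cover the other comparisons or genes that varied widely between mice. P-values set the difference between groups against the spread between mice, estimated over all 24 libraries.

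The 10 genes and the lists were chosen with earlier results of these data known. Named genes are the 10 members, up to 3 per list by smallest p between BC CML and CP CML with a mean of at least 1 CPM, Kit, Ly6a, Mir142 and, for the 3 most abundant members, the 3 most alike named genes (log2 CPM with a prior count of 2). Mcpt9, Ly6g, Cd3e and Cd3d (for their absence), Mcpt1, Cma2, Tpsg1, Gzmb, Fcer1g, Hpgds, Mrgprb2, Gata1, Gata2 and Mitf were named after their values were seen. Sequences came from RefSeq (GRCm38.p6) and GENCODE vM21. Alternatives were the likelihood ratio test, DESeq2 1.42.0, RLE and upper quartile scaling, no filter, at least 1 CPM in 6 libraries, sex as a covariate, only the groups compared, and each mouse left out. The counts and summed level of the erythroid marker list are not reported here.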

Additional observations from a re-analysis of the deposited data

Results flagged for a closer look

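Of 40 groups of 6 values (10 genes in 4 groups), 1 held a library far from the others by Dixon's criterion, which marks about 1 in 20 groups by chance. Tpsb2 stood at 10.5 CPM in miR-142 KO replicate 2 and at 0.708 to 2.21 CPM in the other 5 mice of the group. The same mouse had the highest level of its group for all 10 genes.

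The effect of miR-142 loss on Il1rl1 differed between leukemic and normal LSKs by -2.27 on the log2 scale (edgeR quasi-likelihood test of the difference, adjusted p = 0.00591). The rise was seen in both settings, 10.3-fold in normal and 2.14-fold in leukemic LSKs. Over the alternatives and with each mouse left out, the adjusted p ranged from 9.13e-05 to 0.0129.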

How the results depend on the processing

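The 4 comparisons between groups were repeated in 8 other ways. Fitting only the groups compared was not applicable to the difference of effects, and neither that nor sex as a covariate to female against male. Of the 10 genes, 7 passed for BC CML against CP CML, 7 for CP CML against WT and 0 for female against male each time. The number that passed was 6 for miR-142 KO against WT, but 4 when only the groups compared were fitted, where Mcpt8 (adjusted p = 0.116) and Fcer1a (adjusted p = 0.0606) no longer passed. It was 8 for BC CML against miR-142 KO, but 7 in that fit, where Ms4a2 did not pass (adjusted p = 0.0518). For the difference between the effects of miR-142 loss it was 1, and 3 under both the edgeR likelihood ratio test and DESeq2, which added Hdc and Prg2. The cause was not tested. When mice were left out singly, the counts ranged from 7 to 7, 5 to 7, 6 to 7, 6 to 8, 1 to 3 and 0 to 0 for BC CML against CP CML, miR-142 KO against WT, CP CML against WT, BC CML against miR-142 KO, the difference of effects and female against male.

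Of 450 values of single genes under the other ways of processing, 443 kept their direction and their side of the threshold, 4 newly passed and 3 no longer did. Of 1440 values with a mouse left out, 1376 kept both, 11 newly passed, 14 no longer did and 39 changed sign. None of the values that changed sign had passed the test. Over the mice left out, the log2 fold change of Tpsb2 between miR-142 KO and WT ranged from -0.69 to 0.68, and that of Prss34 between CP CML and WT from -0.57 to 0.0158. The difference of effects ranged from -0.28 to 0.0645 for Cpa3 and from -0.34 to 0.19 for Ms4a2. Female against male ranged from -0.0138 to 0.20 for Cpa3, -0.16 to 0.24 for Mcpt8, -0.19 to 0.24 for Prss34 and -0.46 to 0.15 for Prg2. No paired analysis was possible because the mouse numbers in the labels are not shared between groups. Cma1 and Tpsb2 had few reads in normal LSKs, which limits the precision of their values there.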
